A study of Homo sapiens with 8 samples.

Results

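The insulin-like growth factor (IGF) binding proteins, the stanniocalcins and the protease PAPPA form an extracellular system that sets how much IGF reaches its receptor. The 10 genes considered here, IGFBP1 to IGFBP7, STC1, STC2 and PAPPA, were taken by gene symbol from a deposited table of read counts for 30434 genes, and 9 of them had a row under that symbol. IGFBP1 was not analysed here. RNA had been sequenced from SKBR3, an established human breast cancer line with amplified ERBB2 (HER2), in 4 control libraries whose genotype is given as WT and 4 libraries from cells with FOXA1 knockdown. FOXA1 is a pioneer transcription factor of luminal breast epithelium. The knockdown cells were a stable line made with 3 lentiviral short hairpin RNAs against FOXA1. Both groups were grown in DMEM with GlutaMAX-1, serum and antibiotics. The labels do not say whether control cells carried a control vector, whether the knockdown line was 1 clone, or whether replicates came from separate cultures, so p-values measure the spread between these libraries, which may be technical.

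IGF1 and IGF2 circulate and act at the cell surface bound to IGFBPs, which hold the ligand away from the receptor IGF1R and can also carry it to cells. IGFBP7 binds IGFs only weakly and is the outlying relative of the family. PAPPA is a secreted metalloprotease that cuts IGFBP4 and IGFBP5 and so frees bound IGF, and both stanniocalcins are secreted glycoproteins that inhibit PAPPA. In breast cancer cells IGFBP expression is known to differ with hormone receptor status.

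Library totals lay between 19087878 and 23786684 counts. Levels are given as CPM, counts per 1000000 after scaling for library composition, and 3 counts in a library, used as the floor of detection, corresponded to 0.123 to 0.153 CPM. FOXA1 had 4071 to 4397 counts in control libraries and 83 to 92 in knockdown libraries, 2.06% of the control CPM. Of 9 markers of ERBB2-amplified luminal epithelium all were detected in both groups, but they were divided. At an adjusted p under 0.05 by edgeR, 4 were lower in knockdown, 4 were higher and CLDN3 was neither. As a share of control CPM, ERBB2 was at 18.3%, KRT19 at 27.3%, KRT7 at 28.9% and GRB7 at 34.3%. On the same scale KRT18 was at 150%, EPCAM at 126%, KRT8 at 124% and CLDN4 at 106%. CDH1, which SKBR3 is known to lack, had 1 to 3 counts in control and 7 to 13 in knockdown. Markers of other cell types were low but not all at the floor: the summed CPM of 7 fibroblast genes was 6 to 7.55 in control and 11.3 to 12.8 in knockdown, that of 6 endothelial genes 21.1 to 22.7 and 20.2 to 22.6, and that of 5 leukocyte genes 5.82 to 7.71 and 1.06 to 2.13. Of the defining genes, DCN had at most 1 count in any library, PTPRC at most 3 and PECAM1 at most 6. Other markers moved, and not in 1 direction. Of the fibroblast genes, COL3A1 had 0 or 1 count in control and 90 to 104 in knockdown, and PDGFRB 7 to 12 and 43 to 81. Of the endothelial genes, CDH5 was higher in knockdown, at 16.1 CPM in control and 20.1 CPM in knockdown, and VWF lower, at 5.22 CPM and 0.845 CPM, so their sum hides opposite changes. The leukocyte sum fell mostly through CD68, at 4.94 CPM in control and 0.589 CPM in knockdown. Control replicate 3 stood apart on the second principal component, at -40.2 where the other controls lay between 9.01 and 17.1. The part of these marker shifts in the results below was not tested. In bulk RNA, fewer cells expressing a gene and less RNA per cell cannot be told apart.

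Of the 9 genes, 6 had enough counts to be tested, and all 6 differed between the groups at an adjusted p under 0.05 in edgeR's quasi-likelihood test. IGFBP2, STC1 and STC2 were higher in knockdown, and IGFBP3, IGFBP5 and IGFBP7 were lower. Across the 16430 genes tested, 77.1% were called, 39.4% as higher and 37.7% as lower, so being called was common in these libraries. Fold changes also shifted by region: over the 50 nearest tested genes their median (log2) ran from -1.06 around IGFBP6 to 0.63 around STC2. Whether the groups are the same line apart from the knockdown was not tested, and every difference below is one between these libraries. All 6 moved by 2-fold or more, where 28.3% of tested genes were called with a change of that size. STC2 and IGFBP7 had enough counts to be tested only through the group where they are high, so a large change was built into their being tested. Of the other 4, IGFBP2, IGFBP5 and STC1 moved by 16-fold or more, as did 6.55% of tested genes, and IGFBP3 did not. The median absolute log2 fold change was 6.23 over the 6, a value not set by the fitted change of STC2, and 0.51 over all tested genes. The levels of the 2 groups did not overlap for any of the 6, which held for 72% of tested genes. IGFBP4, IGFBP6 and PAPPA did not pass the filter.

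**Figure D1:**
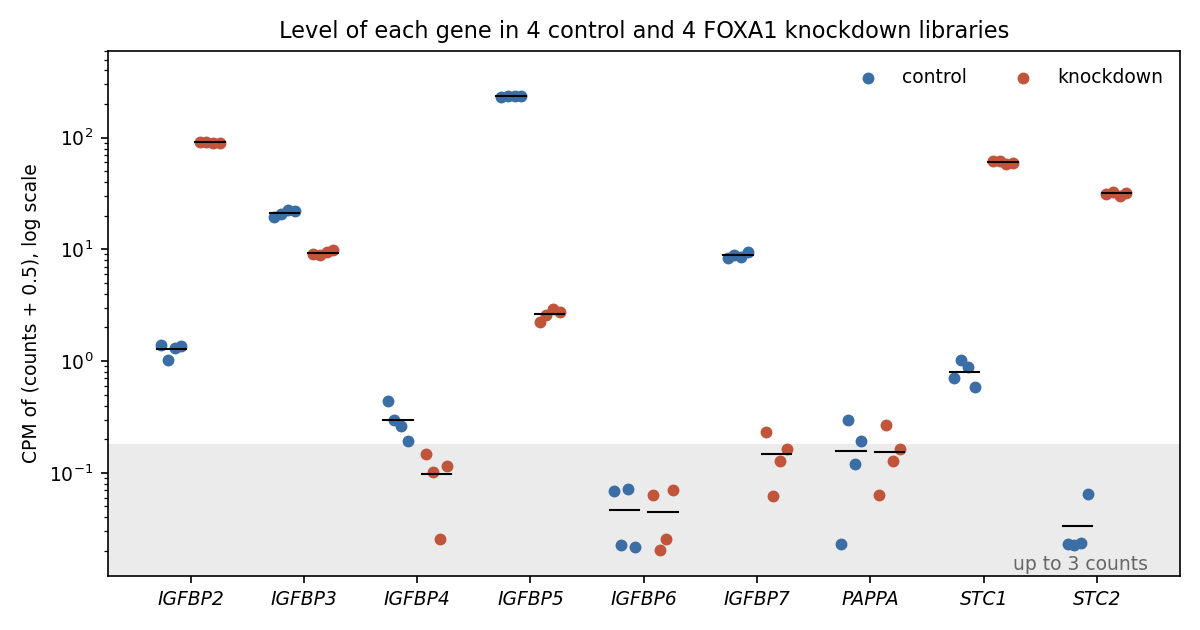
Level of each of the 9 genes in every library, as CPM of the count plus 0.5 on a log axis (points, single libraries; black lines, group means; grey band, up to 3 counts in the smallest library). IGFBP2, STC1 and STC2 sit higher in all 4 knockdown libraries, IGFBP3, IGFBP5 and IGFBP7 sit lower, and IGFBP6 and PAPPA lie near the floor in both groups.

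IGFBP5 was the IGFBP with the highest length-scaled level in control cells and was nearly lost in knockdown cells. It encodes a binding protein that also sticks to extracellular matrix and is one of the substrates of PAPPA. IGFBP5 (ENSG00000115461.5, chromosome 2, 216672105 to 216695525, minus strand, GRCh38) had counts of 5082, 5167, 4923 and 5440 in control replicates 1 to 4 and of 52, 62, 57 and 59 in knockdown replicates 1 to 4. Every knockdown library lay far below every control library. The level went from 233.9 CPM ± 0.840 in control to 2.60 CPM ± 0.297 in knockdown (± SD, n = 4 libraries in each group), which left 1.11%. edgeR put this at -6.50 on the log2 scale with adjusted p = 6.27e-31, the gene ranking 134 from the bottom of all tested genes. The SE, taken from log2 CPM, was 0.0844. Permuting libraries exactly between the groups, p was 0.0286 (exact permutation, two-sided) for each of the 6 tested genes, the smallest value that 4 libraries against 4 allow. The control libraries lay close together: their coefficient of variation was 0.359%, where counting error alone gives 1.39%. IGFBP5 overlaps a little-read antisense gene, which had at most 2 counts.

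IGFBP2, which lies beside it on the chromosome, moved in the opposite direction. It encodes a binding protein that is often raised in tumours and in the blood of cancer patients. IGFBP2 (ENSG00000115457.10, chromosome 2, 216632828 to 216664436, plus strand) had counts of 30, 22, 27 and 31 in control replicates 1 to 4 and of 2150, 2244, 1772 and 1949 in knockdown replicates 1 to 4. All control libraries were low and all knockdown libraries high, with no overlap. Its level rose from a control mean of 1.25 CPM ± 0.170 to a knockdown mean of 90.9 CPM ± 0.863 (± SD, n = 4 libraries in each group). edgeR put this at 6.18 on the log2 scale with adjusted p = 1.79e-28 (SE from log2 CPM, 0.104). From the summed counts the knockdown level was 72.9 times the control level, with a 95% exact interval of 60.4 to 88.8 for counting error only.

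These genes are transcribed towards each other, and their ends lie 7668 bp apart. On the IGFBP2 side the nearest 2 protein-coding genes tested did not pass the threshold. RPL37A, a ribosomal protein gene, had 671.1 CPM in control and 645.7 CPM in knockdown (log2 fold change -0.06, edgeR adjusted p = 0.128), and SMARCAL1, a DNA-annealing helicase gene, was at -0.06 on the same scale (edgeR adjusted p = 0.422). On the far side the nearest tested gene was TNS1, a focal adhesion gene, which rose by 0.68 on the log2 scale. Over the 50 nearest tested genes the median log2 fold change was -0.01 around IGFBP2 and 0.07 around IGFBP5. Within 2000 kb of the midpoint between them, 30 other genes were tested, 10 higher and 11 lower, with a median of 0.09. Among all genes tested, 39.4% were higher and 37.7% lower. The largest change among the 30 genes of the region was that of ABCA12, a lipid transporter gene, at -5.93. ENSG00000273361, a gene without a symbol, was at 5.24 (edgeR adjusted p = 3.03e-09).

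**Figure D2:**
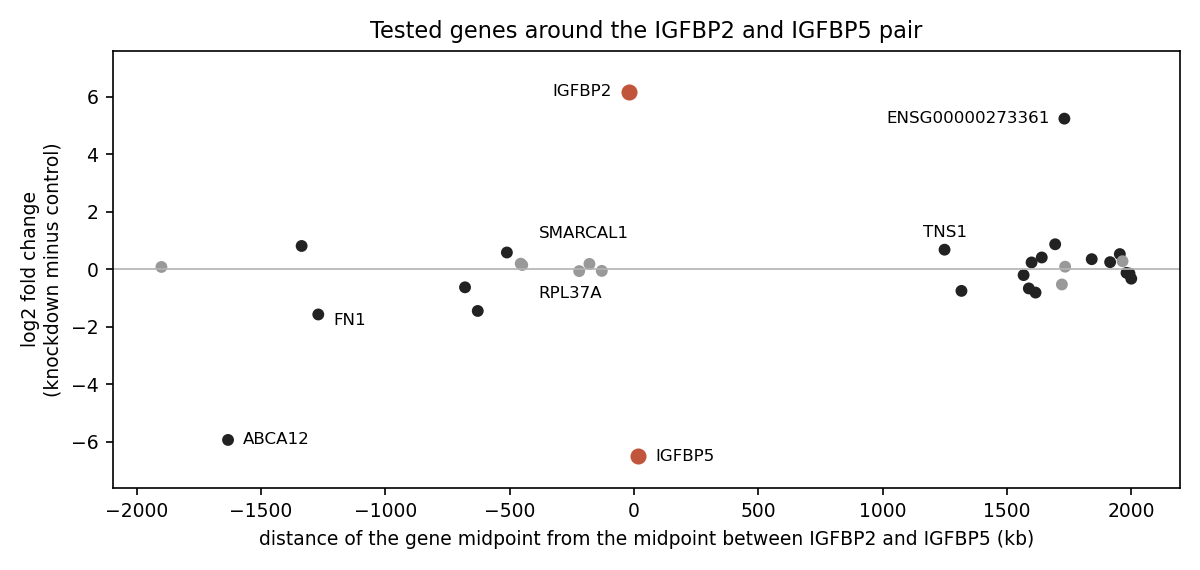
Log2 fold change of each of the 32 tested genes within 2000 kb of the midpoint between IGFBP2 and IGFBP5, by distance of the gene midpoint in kb (red, the pair; black, adjusted p under 0.05; grey, not called). IGFBP2 at 6.18 and IGFBP5 at -6.50 lie side by side at the centre, with ABCA12, at -5.93, and ENSG00000273361, at 5.24, the only others beyond 2 in either direction.

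The sequences in front of both genes are shown because these neighbours moved apart. Each run is the 250 bases before a RefSeq transcription start on GRCh38.p14, read 5′ to 3′ on the gene's own strand. IGFBP2 has 3 starts in RefSeq, and the first along the gene is shown. Which start these cells use was not tested. The window of 300 bases at the first start was 55.3% G or C, and that at the second 70%. Capitals mark matches to the motifs listed after the sequences.
IGFBP2, chr2:216632578-216632827, plus strand: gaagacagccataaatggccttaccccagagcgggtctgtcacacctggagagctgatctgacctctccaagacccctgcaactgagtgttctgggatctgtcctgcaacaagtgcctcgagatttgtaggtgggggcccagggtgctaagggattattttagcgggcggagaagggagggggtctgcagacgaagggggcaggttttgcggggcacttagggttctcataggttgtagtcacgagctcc
IGFBP5, chr2:216695550-216695799, minus strand: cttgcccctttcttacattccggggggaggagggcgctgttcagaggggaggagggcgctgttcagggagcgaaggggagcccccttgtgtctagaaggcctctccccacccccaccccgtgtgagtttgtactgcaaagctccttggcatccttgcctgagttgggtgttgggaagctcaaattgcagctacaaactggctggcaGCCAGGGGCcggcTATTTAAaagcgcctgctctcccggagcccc
The second capital stretch of the IGFBP5 run is TATTTAA, a variant of the TATA box, with 24 bases between it and the start. The first is a match to GCCNNNGGC, the palindromic core bound by AP-2 factors. The IGFBP2 run holds neither.

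Motifs were counted on both strands in RefSeq windows of 300 bases, from 250 before to 50 after each start. Windows were found for 7 of the 10 genes: IGFBP2 (3 windows), IGFBP3, IGFBP4, IGFBP5, IGFBP6, STC2 and PAPPA. Forkhead-type words were searched, namely TGTTTAC, found in 3.42% of all 35116 windows, TGTTTGC, found in 3.89%, and TATTTAC, found in 2.67%. The last of these differs from TATTTAA only in its final letter. TGTTTAC had 1 match each in the windows of PAPPA and IGFBP6, genes near the floor in both groups. TGTTTGC had 1 match at the third IGFBP2 start, inside the gene, and TATTTAC had none. TATTTAA was in 4.52% of all windows and, among these genes, at IGFBP5. TATAAA was in 11.5% of all windows and matched at PAPPA and IGFBP4. GCCNNNGGC was in 23.2% of all windows and matched at IGFBP5 and IGFBP6. These are matches of letters and no measurement of binding.

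IGFBP7 also fell to a few reads. It encodes a secreted protein of vessel walls and epithelium that is often silenced in breast cancer. IGFBP7 (ENSG00000163453.11, chromosome 4, 57030773 to 57110385, minus strand) had counts of 181, 197, 181 and 219 in control replicates 1 to 4 and of 5, 1, 2 and 3 in knockdown replicates 1 to 4. No knockdown library came near a control library. Its level went from a control mean of 8.82 CPM ± 0.493 to a knockdown mean of 0.124 CPM ± 0.0717 (± SD, n = 4 libraries in each group). edgeR put this at -6.10 on the log2 scale with adjusted p = 4.57e-19 (SE from log2 CPM, 0.409). From summed counts of 778 and 11, control was 71.6 times knockdown, with a 95% exact interval of 39.8 to 144. IGFBP7 shares 396 bp with POLR2B on the opposite strand, a gene with a mean of 5909 counts that was at 268.6 CPM in control and 264.2 CPM in knockdown. Whether the counting used strand is not given in the sources used here.

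IGFBP3 fell by a smaller factor. It encodes the main IGF carrier of blood and is known to slow growth and favour cell death in many lines. IGFBP3 (ENSG00000146674.15, chromosome 7, 45912245 to 45921874, minus strand) had 425, 453, 472 and 507 counts in control and 212, 216, 187 and 212 in knockdown, replicates 1 to 4. The groups were separate, though closer than for the other called genes. Its level went from a control mean of 21.1 CPM ± 1.32 to a knockdown mean of 9.30 CPM ± 0.446 (± SD, n = 4 libraries in each group). edgeR put this at -1.18 on the log2 scale with adjusted p = 4.54e-14 (SE from log2 CPM, 0.0572). The 50 nearest tested genes had a median of -0.21, and with that regional shift removed the log2 fold change was -0.97.

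IGFBP4 and IGFBP6 were barely read. IGFBP4, a substrate of PAPPA that binds both IGFs, had 9, 6, 5 and 4 counts in control and 3, 2, 0 and 2 in knockdown. Its control libraries were all above its knockdown libraries, and summed counts of 24 and 7 gave a ratio of 3.47 with a 95% exact interval of 1.45 to 9.54. It was not tested in the main comparison, and with no filter on low counts its adjusted p by edgeR was 0.0147. That setting gave far smaller values than the main comparison, for IGFBP7 an edgeR adjusted p of 1.12e-168 against 4.57e-19, so 0.0147 is not on the main scale. Around IGFBP4 the 50 nearest tested genes had a median log2 fold change of -0.78, a shift not removed from the values of IGFBP4. IGFBP4 begins 713035 bp beyond the end of ERBB2 on chromosome 17. IGFBP6, which prefers IGF2 as ligand, had at most 1 count in any library.

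Set on a scale comparable between genes, as CPM per kilobase of merged exons, IGFBP2 took the place of IGFBP5 as the IGFBP with the highest level. In control the order was IGFBP5 at 36.3 ± 0.130, IGFBP3 at 4.61 ± 0.289, IGFBP7 at 4.57 ± 0.255 and IGFBP2 at 0.262 ± 0.0357 (SD, n = 4). IGFBP3 and IGFBP7 did not differ beyond their spread. In knockdown it was IGFBP2 at 19.1 ± 0.181, IGFBP3 at 2.03 ± 0.0975, IGFBP5 at 0.403 ± 0.0461 and IGFBP7 at 0.0640 ± 0.0372 (SD, n = 4). Among 13278 tested protein-coding genes, IGFBP5 stood above 90.8% in control and 13.9% in knockdown. IGFBP2 stood above 13.2% in control and 82.6% in knockdown.

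Summed over IGFBP2 to IGFBP7, the level was 45.2 to 46.4 CPM per kilobase in control libraries and 21.5 to 21.7 in knockdown libraries, so the knockdown mean was 47.1% of the control mean. IGFBP5 made up 79.1% ± 0.677 of that sum in control and 1.86% ± 0.219 in knockdown (SD, n = 4 each). IGFBP2 made up 0.571% ± 0.0791 in control and 88.2% ± 0.653 in knockdown. The share of IGFBP3 was 10.0% ± 0.538 in control and 9.41% ± 0.470 in knockdown, ranges that overlapped (9.42% to 10.6% and 8.93% to 9.92%). IGFBP7 went from 9.95% ± 0.463 to 0.296% ± 0.171. These shares are a description with no test, and they depend on the gene length used.

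**Figure D3:**
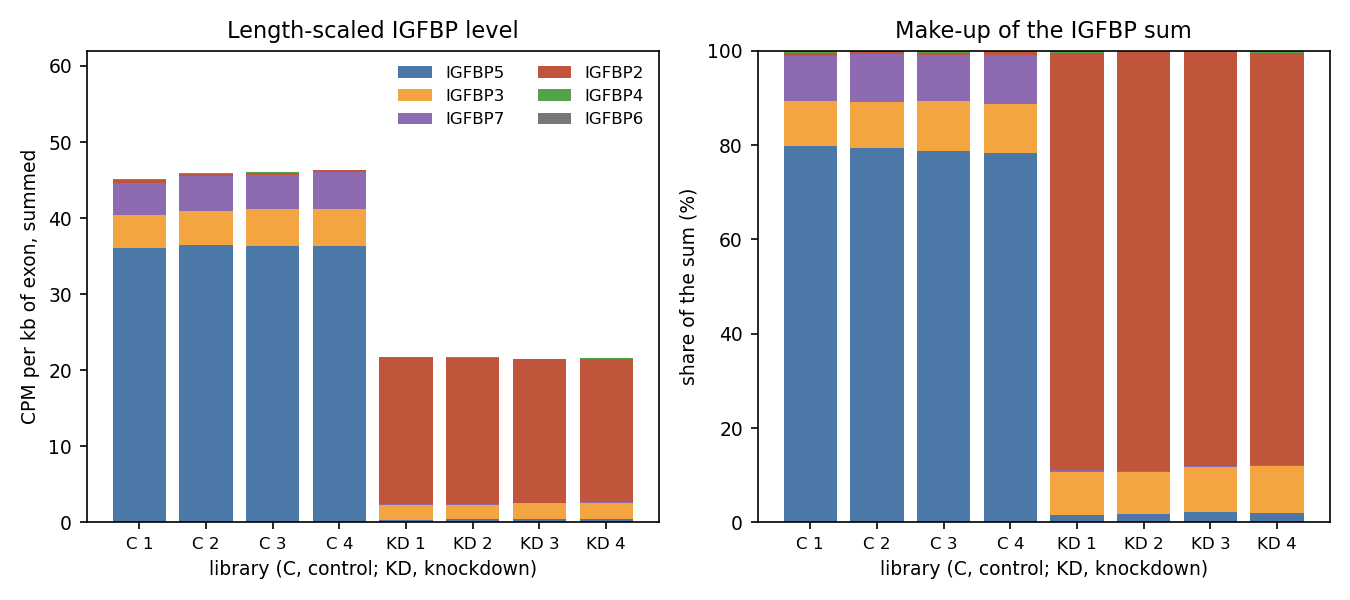
Stacked bars of IGFBP2 to IGFBP7 in each library, as CPM per kilobase of merged exons (left) and as a percentage of their sum (right). The sum lies at 45.2 to 46.4 in control libraries, mostly IGFBP5, and at 21.5 to 21.7 in knockdown libraries, mostly IGFBP2.

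In control libraries STC1 was low, though above the floor of 3 counts, and STC2 was under it, and both were higher in knockdown. STC1, the mammalian relative of a calcium-regulating fish hormone, is induced by hypoxia and other stresses. STC1 (ENSG00000159167.12, chromosome 8, 23841915 to 23854807, minus strand) had 15, 22, 18 and 13 counts in control and 1443, 1513, 1139 and 1275 in knockdown, replicates 1 to 4. The groups lay far apart. Its level rose from a control mean of 0.775 CPM ± 0.192 to a knockdown mean of 60.1 CPM ± 1.89 (± SD, n = 4 libraries in each group). edgeR put this at 6.27 on the log2 scale with adjusted p = 1.08e-26 (SE from log2 CPM, 0.179). From summed counts the ratio was 78, with a 95% exact interval of 61.5 to 101.

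STC2 encodes the more distant stanniocalcin, known as an estrogen-responsive gene in breast cancer and a target of the unfolded protein response. STC2 (ENSG00000113739.10, chromosome 5, 173314713 to 173329503, minus strand) had 0, 0, 0 and 1 count in control and 738, 800, 596 and 693 in knockdown, replicates 1 to 4. It was undetected in 3 of 4 control libraries and had at least 596 counts in every knockdown library, a level per kilobase above 51.6% of tested protein-coding genes. The knockdown level was 31.6 CPM ± 1.03 (SD, n = 4), or 222 times the level of 3 counts in the smallest control library. With a single control count, the ratio of summed counts was 2793, with a 95% exact interval of 501 to 110375. edgeR gave an adjusted p of 4.32e-25. Its fitted log2 fold change of 10.86 depends on the prior count, and was 12.44 without control replicate 4, the library that holds the single count. Around STC2 the 50 nearest tested genes had a median log2 fold change of 0.63.

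Of the 5 nearest tested genes on each side of STC2, only CPEB4 fell. BOD1, next to STC2 on one side, rose by 1.10 on the log2 scale, while CPEB4, the gene beyond it, fell by 3.01. Beyond CPEB4, MSX2, SFXN1 and THOC3 rose by 1.55, 0.80 and 1.25. NKX2-5, on the other side of STC2, had 0 CPM in control and 11.9 CPM in knockdown. On that side BNIP1, CREBRF, ATP6V0E1 and RPL26L1 rose by 0.43, 1.53, 0.10 and 1.27. With the shift of the 50 nearest genes removed, log2 fold changes were 10.34 for STC2 and 6.04 for STC1.

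PAPPA, the protease that the stanniocalcins inhibit, was close to the floor in both groups. PAPPA (ENSG00000182752.10, chromosome 9, 116153804 to 116402322, plus strand) had 0, 6, 2 and 4 counts in control and 1, 6, 2 and 3 in knockdown. The groups overlapped fully, with 12 counts in each, and the ratio of 0.988 had a 95% exact interval of 0.406 to 2.40, so a change within that interval was not detectable at this depth. Per kilobase, knockdown libraries held STC1 at 14.5 CPM ± 0.454, STC2 at 5.16 CPM ± 0.168 and PAPPA at 0.0114 CPM ± 0.00738 (SD, n = 4). IGFBP5, one of the PAPPA substrates, was at 0.403 CPM per kilobase in the same libraries.

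The ligands and receptors around these genes were examined from a list of 16 genes, of which 14 had a row and 11 were tested. Of the 11, 7 were higher and 4 lower, with a median log2 fold change of 0.35. Among all genes tested, 77.1% were called, 39.4% as higher and 37.7% as lower, with a median of 0.02. Both IGF ligands were near or at the floor: IGF1 had at most 1 count and IGF2 at most 4 in any library. The count of IGF2 is uncertain, since INS-IGF2 overlaps it by 17066 bp on the same strand and a second IGF2 entry by 20492 bp. Neither had a row among the counts. IGF1R, the signalling receptor, had 490 to 582 counts in control and 81 to 144 in knockdown. Its mean fell from 24.3 CPM ± 0.923 in control to 4.65 CPM ± 0.854 in knockdown (± SD, n = 4 libraries in each group), which edgeR put at -2.38 on the log2 scale with adjusted p = 3.29e-18. INSR, the insulin receptor, which also binds IGF2, rose from 10.3 CPM ± 1.08 to 28.2 CPM ± 2.86, or 1.46 on the log2 scale (adjusted p = 2.62e-13 by edgeR). IGF2R, which clears IGF2, fell from 279.9 CPM ± 4.21 to 213.4 CPM ± 7.66 (log2 fold change -0.39). For IGF1R every knockdown library lay below every control library, and for INSR every one lay above.

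The docking proteins also moved apart. IRS1, which couples IGF1R to PI3K, fell from 14.4 CPM ± 0.616 to 6.04 CPM ± 0.228 (log2 fold change -1.25), and IRS2, its close relative, rose from 1.23 CPM ± 0.210 to 3.46 CPM ± 0.378 (log2 fold change 1.49; SD, n = 4 each). GRB10 and GRB14 encode adaptors that bind and inhibit the insulin and IGF1 receptors. GRB10 rose from 32.5 CPM ± 0.677 to 255.9 CPM ± 7.94 (log2 fold change 2.98) and GRB14 from 0.438 CPM ± 0.168 to 4.37 CPM ± 0.975 (log2 fold change 3.29). GRB14, with 5 to 15 counts in control and 74 to 131 in knockdown, had enough counts to be tested only through knockdown. Its rise was thus built into its being tested, and it entered the count and median of the ligand, receptor and adaptor list. SHC1, GRB2, GIGYF1 and GIGYF2 changed by less than 2-fold.

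The list of IGF carriers, IGFBP-cutting proteases and protease inhibitors had 25 genes, 23 with a row and 13 tested. Of the 13, 10 were higher and 2 lower (median log2 fold change 1.16). Over all genes tested, 39.4% were higher and 37.7% lower, with a median of 0.02. ADAMTS1, HTRA1, HTRA3, PRG2, PAPPA2 and ADAM12 had at most 4 counts in any control library. They had enough counts to be tested only through knockdown, so their rise was built into that count and median. MMP9, with 7 to 14 counts in control and 21 to 28 in knockdown, likewise met the filter only with its knockdown libraries. Its place in that count and median depended on them. ADAMTS1, a metalloprotease gene, went from 1 to 4 counts in control to 7811 to 10201 in knockdown, where it was at 404.9 CPM ± 9.18 (SD, n = 4). HTRA1, a secreted serine protease with an IGFBP-type domain, had 0 counts in every control library and 180 to 214 in knockdown, at least 61.3-fold higher against a floor of 3 counts in the smallest control library. ADAM12, which cuts IGFBP3 and IGFBP5, went from 0 to 4 counts to 77 to 126 counts (log2 fold change 5.43). The cathepsins went the other way: CTSD fell from 2589 CPM ± 121 to 418.5 CPM ± 8.90 (log2 fold change -2.63), and CTSB, at -1.13 on that scale, fell less. The count of CTSD is uncertain, since a longer gene on the same strand overlaps it by 11203 bp; that gene averaged 372 counts. ADAM9 did not pass the threshold (log2 fold change 0.14, edgeR adjusted p = 0.114), but was called under 6 of 20 alternative settings.

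Singled out after their values were seen, 2 genes of that list are close to PAPPA. PRG2, whose proform is a covalent inhibitor of PAPPA, had 0 counts in every control library and 60 to 81 in knockdown, at least 21.6-fold higher against the same floor. PAPPA2, the paralogue of PAPPA, had 0 or 1 count in control and 24 to 34 in knockdown, with a ratio of summed counts of 56.8 and a 95% exact interval of 15.4 to 475. Both were called by edgeR (adjusted p of 5.10e-14 for PRG2 and 9.79e-11 for PAPPA2).

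Other genes that share the amino-terminal IGFBP-type domain were divided, with 4 higher and 4 lower among 8 tested of 13 (median log2 fold change -0.48). All tested genes were also divided nearly evenly, 39.4% higher and 37.7% lower, with a median of 0.02. HTRA1, HTRA3 and IGFBPL1, with at most 1 count in any control library, had enough counts to be tested only through knockdown. CCN5, with at most 2 counts in any knockdown library, and KAZALD1, with 3 to 11, were tested only through control. The directions of these genes were built into their being tested. CCN1 and CCN2, matricellular targets of YAP, fell, from 117.8 CPM ± 4.34 to 24.1 CPM ± 1.51 and from 23.8 CPM ± 2.15 to 5.14 CPM ± 0.470 (± SD over 4 libraries; log2 fold changes -2.29 and -2.22). KAZALD1 fell by 4.04 on the log2 scale. CRIM1, a transmembrane binder of bone morphogenetic proteins, rose from 84.9 CPM ± 2.57 to 202.2 CPM ± 10.8 (log2 fold change 1.25), and it shares 19331 bp with FEZ2 on the opposite strand. By edgeR, the highest adjusted p among the called genes of these 3 lists given with a log2 fold change was 1.32e-08. ADAM9, also given with one, was not called. HTRA1 and HTRA3 are tested members of both of the last 2 lists.

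**Figure D4:**
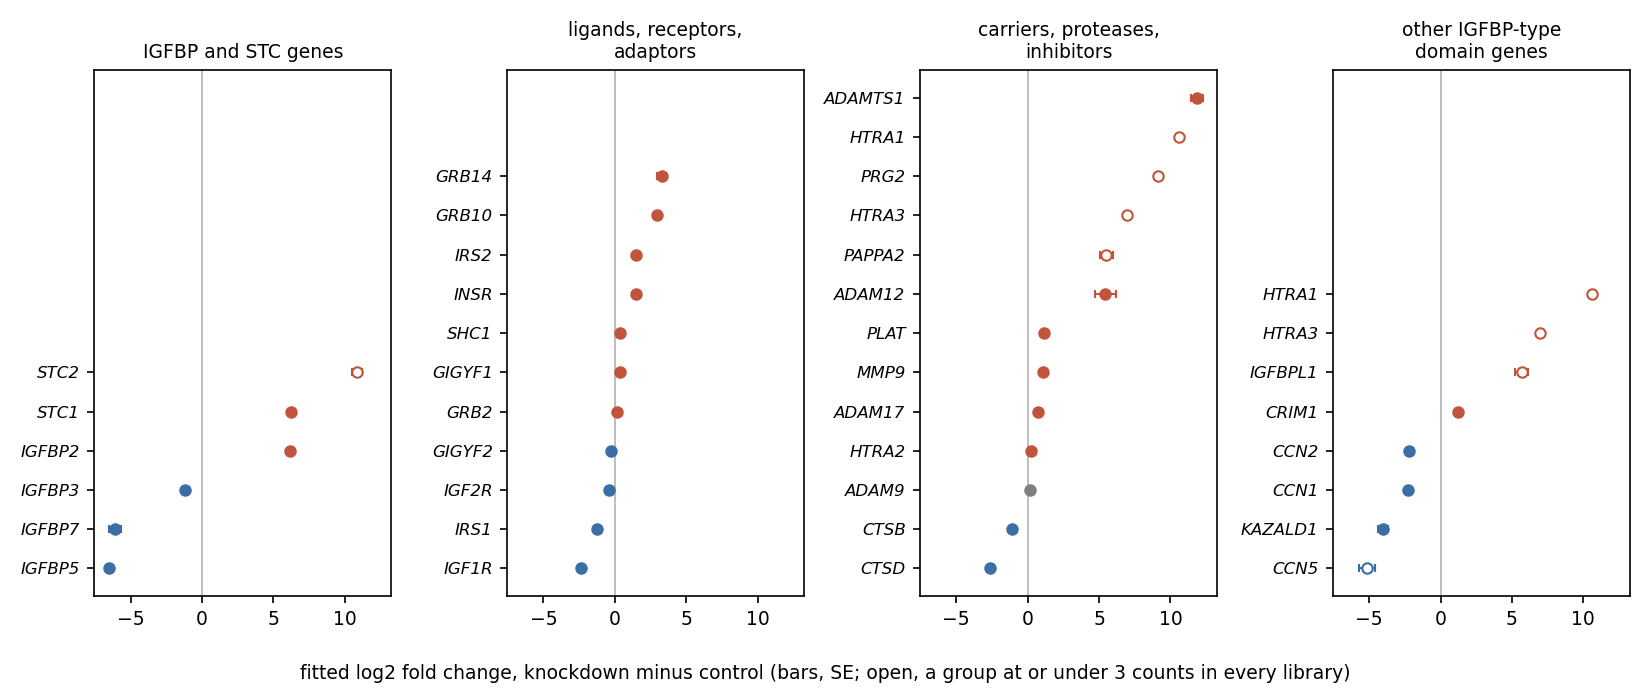
Fitted log2 fold change (knockdown minus control) of the 6 tested members and of the tested genes of the 3 pathway lists (red, higher; blue, lower; grey, not called; bars, SE; open symbols, genes with 3 or fewer counts in every library of a group, whose fitted value depends on the prior count). IGFBP5 and IGFBP7 lie below -6 and IGFBP2, STC1 and STC2 above 6, while IGF1R, at -2.38, and INSR, at 1.46, lie on opposite sides of 0.

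Without control replicate 3, the library that stood apart, the log2 fold changes were 6.19 for IGFBP2, -1.16 for IGFBP3, -6.50 for IGFBP5, -6.11 for IGFBP7, 6.32 for STC1 and 10.59 for STC2, and all 6 were still called.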

How the data were processed

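Trizol was used for RNA extraction, and paired reads of 101 bp came from an Illumina NextSeq550, per the labels' protocols. The authors deposited whole-number read counts per gene, under Ensembl identifiers with gene symbols. Per the submitters' processing notes, FastQC, Salmon 1.9, DESeq2 3.16 and hg38 were used, with no role given; whether counts are rounded Salmon estimates, the annotation and the use of strand are not given in the sources used here. Positions and exon lengths come from GENCODE 29 on GRCh38.

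Counts were analysed with edgeR 4.0.16 in R 4.3.3: filterByExpr (defaults, minimum of 10 counts), TMM scaling, robust quasi-likelihood test, Benjamini-Hochberg adjustment over 16430 genes, threshold 0.05. SEs come from log2 CPM with 0.5 added to each count. CPM divides by the scaled total. Single members were also tested by exact permutation over 70 divisions. Ratios of summed counts have exact 95% intervals, for counting error only. The code was tested on simulated data.

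Members, lists and tests were chosen with earlier results of these data known. Named list genes were IGF1, IGF2, IGF1R, IGF2R, INSR, IRS1, IRS2 and called genes with a change of at least 2-fold and a mean of at least 50 counts. Alternatives were 3 other scalings, 2 filters, DESeq2 1.42.0, limma voom 3.58.1, no robust estimation, a replicate block, adjusted p under 0.01, a test against 2-fold, removal of the regional shift, and leaving out each library.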

Additional observations from a re-analysis of the deposited data

Results flagged for a closer look

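Within each group of 4 libraries, the distance of an extreme library from its nearest neighbour was set against the whole spread, and a library past Dixon's 95% limit is given here. Of 67 groups of values, 5 passed it, where chance gives about 3.35, and no cause was tested for any. STC2 in control replicate 4 (0.0431 CPM, the single count of that group, others 0) has a gap ratio of 1. IRS1 was low in control replicate 2, at 13.4 CPM against 14.5 to 14.7. In control replicate 4, GRB10 was low, at 31.5 CPM against 32.8 to 32.9, and CCN1 was high, at 124 CPM against 115 to 116. Control replicate 3 lay at -40.2 on the second principal component, against 9.01 to 17.1.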

How the results depend on the processing

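Under all 20 alternatives the 6 called members kept direction and call. Their log2 fold changes ranged from 6.09 to 6.26 for IGFBP2, -1.22 to -0.97 for IGFBP3, -6.57 to -6.41 for IGFBP5, -6.50 to -5.78 for IGFBP7, 6.04 to 6.42 for STC1 and 10.05 to 12.44 for STC2, whose lowest value came from limma voom. With no filter on low counts, 4 members were lower, the added one being IGFBP4. ADAM9 was called higher under 6 of 20 alternatives (upper-quartile scaling, library size only, no filter, no robust estimation, DESeq2 and limma voom); its adjusted p over all 20 ran from 0.000805 to 1, and with the regional shift removed its log2 fold change was -0.06. Leaving out a library let ADAM28 or CCN6 be tested and called. Larger shifts in the counts of list genes came with stricter criteria, by construction. With a mean of at least 50 counts, 5 carrier and protease genes and 2 IGFBP-type domain genes were higher. Against a 2-fold change, 4 ligand, receptor and adaptor genes were higher and 2 lower, IGF2R no longer being called, and 6 carrier and protease genes were higher. With no filter, 13 carrier and protease genes were higher and 3 lower, and 6 IGFBP-type domain genes were higher and 6 lower, of those tested then. Using the longest transcript as gene length, the share of IGFBP2 in knockdown was 82.4%, that of IGFBP3 16.5% in control and 15.4% in knockdown, that of IGFBP5 in control 71.0% and that of IGFBP7 in control 11.7%, so IGFBP3 was then above IGFBP7 in control.

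Same-numbered libraries did not deviate together: correlations of their deviations were 0.0194, 0.0561, -0.0309 and -0.000604. Not every library correlated best with its own number, and the numbers are not taken to pair the samples. With a replicate block 3 members were higher and 3 lower, with a log2 fold change of 6.18 for IGFBP2 and -6.50 for IGFBP5. Depth limits IGFBP4, IGFBP6 and PAPPA, each with at most 9 counts in a library.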
